A study of Mus musculus with 15 samples.

Results

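The genes of the collagen chains were examined in cultured mouse lymphatic endothelial cells (LECs), the cells that line lymphatic vessels, after stimulation with angiotensin II (Ang II), the vasoactive peptide of the renin-angiotensin system. Every probe set was taken whose only annotated gene symbol has the form of a collagen alpha chain, Col followed by the collagen type, an a and the chain number. This gave 42 chains of 22206 probe sets on the array, each chain with 1 probe set, and they comprised 11 fibrillar chains, 6 basement membrane chains (Col4a1 to Col4a6) and 25 other chains. The chains Col7a1, Col12a1 and Col21a1 were not analysed here. The cells are labelled a murine LEC line, while the paper's text also speaks of primary cells, and they were grown in DMEM with 10% fetal bovine serum, without a stated genotype or passage. They were compared in 3 groups of 5 samples with 1 array each. The control group is labelled Sham and its cells were given saline. The other groups were given Ang II at 500 nM for 12 h or for 24 h by their labels. The methods also mention another, lower dose. The harvest time of the control is not stated, so Ang II and time in culture cannot be told apart. Nothing states that the numbered samples came from separate cultures, and p-values therefore cover the sample-to-sample spread alone, technical or not.

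Collagens are secreted or membrane proteins whose alpha chains wind around each other into a triple helix. The fibrillar chains, such as those of types I, II, III, V and XI, pack into the fibrils that give tissue its tensile strength. The type IV chains form the network of basement membranes, which blood vessels carry as a continuous sheet and lymphatic capillaries only in patches. The other chains decorate fibrils, form beaded filaments or short networks, or span the plasma membrane. A trimer needs chains that fit, so partner chains such as Col4a1 and Col4a2 are often made together, and their genes lie head to head and share a promoter region.

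The sequences around the start sites are shown here because the chains of type IV lie in such pairs and because Col4a5 and Col27a1 are among the chains with the smallest p-values below. They come from RefSeq (GRCm38.p6), which held start windows (250 bases before to 50 after a start) for 34 of the 42 chains, 37 windows in all. The capitals mark the GC box letters GGGCGG and the CCAAT letters. The first sequence lies at chr8:11312805-11312826 (plus strand), the 22 bases with which the annotated Col4a2 transcript begins on the plus strand and the Col4a1 transcript begins on the minus strand. The others are the 250 bases before the start of Col4a5 at chrX:141475169-141475418 and of Col27a1 at chr4:63215162-63215411, both on the plus strand.
Col4a1 and Col4a2 shared start: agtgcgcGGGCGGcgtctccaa
Col4a5 upstream: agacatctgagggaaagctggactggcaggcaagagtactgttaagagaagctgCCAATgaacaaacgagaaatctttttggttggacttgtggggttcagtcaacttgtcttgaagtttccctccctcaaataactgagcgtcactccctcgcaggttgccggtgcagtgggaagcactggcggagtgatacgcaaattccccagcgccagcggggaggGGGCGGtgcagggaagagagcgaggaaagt
Col27a1 upstream: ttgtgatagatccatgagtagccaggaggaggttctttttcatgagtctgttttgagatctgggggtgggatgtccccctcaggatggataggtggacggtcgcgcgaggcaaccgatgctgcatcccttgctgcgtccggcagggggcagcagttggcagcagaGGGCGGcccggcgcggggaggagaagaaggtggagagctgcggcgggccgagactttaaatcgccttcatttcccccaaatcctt
The starts of Col4a5 and Col4a6, another such pair, lay 1343 bases apart. Of the 37 collagen windows, searched on both strands, 59.5% held GGGCGG, against 35.7% of all 32851 windows of the table. CCAAT was in 32.4% of the collagen windows against 37.4% of all, TATAAA in 13.5% against 13.6%, and the AP-1 letters TGANTCA in 2.7% against 7.81%. The share with GGGCGG was 75% of 8 fibrillar windows, 80% of 5 basement membrane windows and 50% of 24 windows of the other chains.

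The values are log2 levels after normalization with the RMA algorithm, and the array medians lay between 4.80 and 4.84. Control replicate 3 and the Ang II 24 h replicate 3 stood apart from the other arrays, with mean correlations to them of 0.957 and 0.962 across probe sets. Low signal was judged against a mark of 6.26, the 95th percentile of 487 probe sets from families with tissue-restricted expression (chemosensory receptors, defensins and keratin-associated proteins). Of the lymphatic markers 1 of 8 (Ccl21a) had a mean above the mark and Prox1, Lyve1 and Flt4 did not, nor did any of 8 markers of all endothelium. The marker levels on these arrays therefore did not bear out the LEC label by this mark. The mark is strict, since 27 of 61 probe sets of ribosomal proteins, most of which all cells make, also lay at or below it. A level below it thus does not show that a gene is silent. The paper reports staining of the cells for LYVE-1 and VEGFR-3 (Flt4) and qPCR signals for both and for Prox1. The mean level of the lymphatic list ranged from 4.55 to 4.73 in the control, 4.61 to 4.76 at 12 h and 4.57 to 4.76 at 24 h. None of 6 fibroblast or 6 smooth muscle markers lay above the mark, whereas 2 of 5 epithelial markers (Krt8 and Krt18) and 1 of 3 leukocyte markers did. The latter was Ptprc (CD45), with means of 6.75 in the control, 7.07 at 12 h and 7.26 at 24 h. Its log2 fold change at 24 h was 0.51 (95% confidence interval 0.18 to 0.85, unadjusted p = 0.00476, adjusted p = 0.553, limma). All its 24 h arrays lay above all control arrays, a separation found upwards in 0.486% of all probe sets and in 1.07% either way. The T cell marker Cd3e had means of 5.22, 5.04 and 4.92 and the macrophage marker Adgre1 5.20, 5.26 and 5.05. The mean level of the leukocyte list ranged from 5.58 to 5.84, 5.61 to 6.24 and 5.60 to 5.90 in the control, at 12 h and at 24 h, and that of the fibroblast list from 4.56 to 4.89, 4.54 to 4.77 and 4.70 to 4.74. That of the epithelial list ranged from 5.25 to 5.65, 5.26 to 5.42 and 4.98 to 5.49. For all endothelium it was 4.34 to 4.42, 4.37 to 4.53 and 4.39 to 4.68. Krt8 had a log2 fold change of -0.58 for 24 h against 12 h (95% confidence interval -0.98 to -0.18, limma). The other 4 of 5 epithelial markers were higher. Epcam had -0.49 at 12 h (-0.82 to -0.16), with 2 of 5 higher. Kdr had 0.63 at 24 h (0.20 to 1.06), with 2 of 8 lower. No marker of either list was called after adjustment. The part of these marker levels in the collagen values was not tested.

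Most collagen chains gave a dim signal. Of the 42 chains 7 (16.7%) had a mean above the mark, close to the 14.5% of all probe sets, and 35 lay at or below it. The 7 were the fibrillar chain Col5a2, the fibril-associated chains Col9a3, Col16a1, Col20a1 and Col22a1, the network chain Col8a2 and the transmembrane chain Col13a1. None of the 6 type IV chains was among them. Levels of different probe sets depend on their probes and were not ranked, and a dim probe set can hide a change.

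No collagen chain passed the test for a difference between the groups after adjustment over all probe sets. At an adjusted p under 0.05 (limma, Benjamini-Hochberg) 0 of 42 chains were called at 12 h, where 0% of all probe sets were called, and 0 of 42 at 24 h, where 0.018% were. The same count was 0 of 42 for 24 h against 12 h and in the F test over the 3 groups, where 0.0225% of all probe sets were called in each. The smallest adjusted p of a chain was 0.966 at 12 h, 0.612 at 24 h, 0.787 for 24 h against 12 h and 0.762 in the F test. At an unadjusted p under 0.05 there was 1 lower and 0 higher chain at 12 h, with 2.4% of all probe sets lower and 2.51% higher. At 24 h there was 1 higher and 0 lower chain, with 3.64% of all probe sets higher and 3.46% lower. For 24 h against 12 h there were 3 higher and 0 lower chains, with 3.07% and 2.92% of all probe sets. The F test gave 2 chains (4.76%), against 6.25% of all probe sets. The shares of chains were thus 2.38% at 12 h and at 24 h, beside backgrounds of 4.91% and 7.1%. For 24 h against 12 h the share was 7.14%, beside a background of 5.99%. These shares rest on 1 to 3 chains and are not a result about collagens.

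The intervals of the fold changes bound the change in the signal of the probe sets, which for the 35 dim chains need not bound the change in their mRNA. The median half-width of the 95% confidence interval was 0.32 on the log2 scale, and the bound farthest from 0 among the 42 chains was 0.76 at 12 h, 0.76 at 24 h and 0.80 for 24 h against 12 h. No chain's interval therefore reached a log2 fold change of 1 (a doubling or halving) in any comparison. Higher means than in the group compared were found for 26 of 42 chains at 12 h, 26 at 24 h and 18 for 24 h against 12 h. Of all probe sets 49.7%, 50.7% and 50.8% were higher in these comparisons. At both times 33 of 42 chains had a mean within 0.2 of the control. Of all 22206 probe sets 15726 did at 12 h and 15062 at 24 h. The residual SD of the chains had a median of 0.22, against 0.28 over all probe sets.

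**Figure D1:**
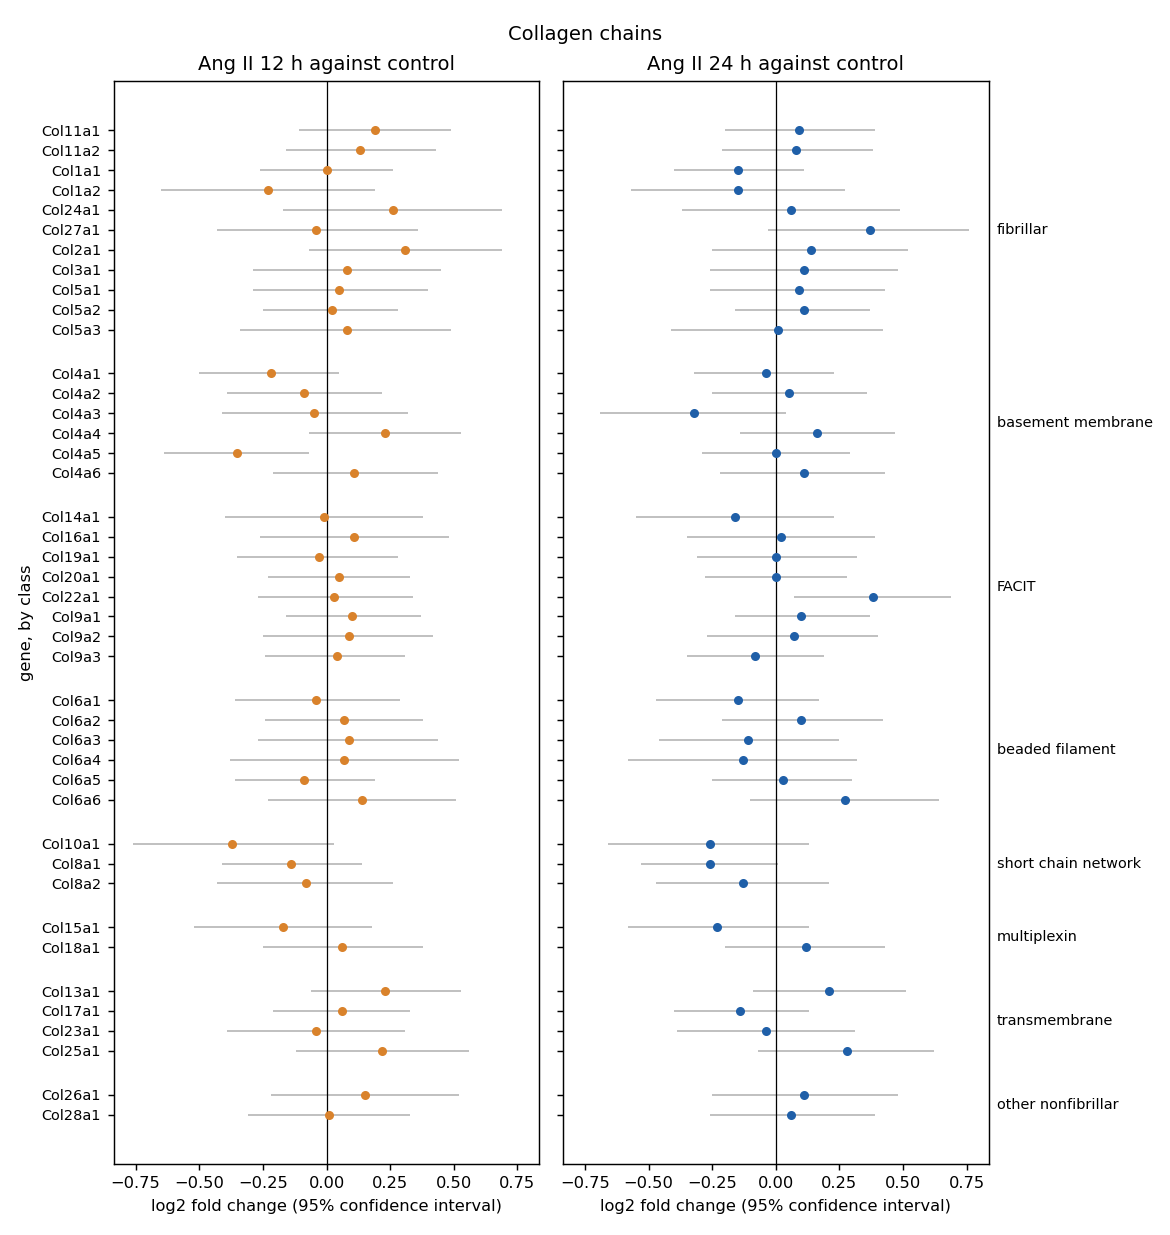
Log2 fold change of each of the 42 collagen chains after 12 h (left) and 24 h (right) of Ang II against control, by collagen class, with the 95% confidence interval of the limma fit as the bar (5 arrays per group). Most intervals include 0, with the exceptions of Col4a5 at 12 h and Col22a1 at 24 h, and none reaches past 0.76.

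The fibrillar chains as a class lay near the control. The median log2 fold change of the 11 chains was 0.08 at 12 h and 0.09 at 24 h, where the median of all probe sets was 0, and 8 and 9 of the 11 had a higher mean than the control, while 49.7% and 50.7% of all probe sets did. With only probe sets above the median intensity, which left Col1a1, Col1a2, Col5a2 and Col11a2 in the class, the fibrillar median was 0.01 at 12 h and -0.03 at 24 h. The class median on each array, as the deviation from the control mean, ranged from -0.03 to 0.04 in the control, -0.07 to 0.19 at 12 h and -0.01 to 0.20 at 24 h, so the groups overlapped.

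Types I and III, the main collagens of connective tissue fibrils, gave similar values in the 3 groups. The Col1a1 level was 6.25, 6.17, 6.08, 6.12 and 6.05 on the control arrays, 6.30, 6.14, 5.95, 6.25 and 6.03 at 12 h, and 5.97, 6.15, 5.96, 6.04 and 5.82 at 24 h. The groups overlapped, and the log2 fold change was 0.00 at 12 h (95% confidence interval -0.26 to 0.26) and -0.15 at 24 h (-0.40 to 0.11, adjusted p = 0.862, limma). The Col1a2 level, that of the partner chain in type I collagen, was 4.86, 4.30, 5.72, 5.12 and 4.86 in the control, 4.41, 5.05, 4.85, 4.68 and 4.72 at 12 h, and 4.75, 4.66, 4.81, 5.17 and 4.71 at 24 h. The control held both the lowest and the highest Col1a2 value, the latter on replicate 3, which stands apart. The Col1a2 log2 fold change was -0.23 at 12 h and -0.15 at 24 h (SE 0.20 each, adjusted p = 0.974 and 0.926, limma). Without control replicate 3 it was -0.04 at 12 h and 0.03 at 24 h. Col3a1, whose homotrimers form thin fibrils, had means of 3.31 ± 0.24, 3.38 ± 0.40 and 3.42 ± 0.15 (SD, n = 5) in the control, at 12 h and at 24 h, and its groups overlapped. Among all 15 arrays Col3a1 values lay between 2.85 and 3.88, far below the mark.

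Col27a1, a fibrillar chain known from cartilage, was the fibrillar chain with the smallest F test p (0.0873, adjusted 0.820, limma). Its level was 4.31, 4.57, 4.36, 3.76 and 4.35 in the control, 4.57, 3.94, 4.61, 4.39 and 3.66 at 12 h, and 4.61, 4.50, 4.41, 4.78 and 4.89 at 24 h. All 5 arrays at 24 h lay at 4.41 or above, whereas the control held a low array at 3.76 and the 12 h group low arrays at 3.94 and 3.66. The Col27a1 log2 fold change was -0.04 at 12 h, 0.37 at 24 h (95% confidence interval -0.03 to 0.76, adjusted p = 0.727, limma) and 0.40 for 24 h against 12 h (SE 0.19, interval 0.01 to 0.80, unadjusted p = 0.0464, adjusted p = 0.823). The unadjusted p of the last comparison was 0.168 without the Ang II 12 h replicate 5, and it was also above 0.05 when any of control replicates 1, 3 and 5, replicate 2 at 12 h, and replicates 1, 4 and 5 at 24 h was left out. The other fibrillar chains, Col2a1, Col5a1, Col5a2, Col5a3, Col11a1, Col11a2 and Col24a1, had log2 fold changes between 0.01 and 0.31, the largest for the cartilage chain Col2a1 at 12 h (0.31, SE 0.18, adjusted p = 0.966, limma).

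**Figure D2:**
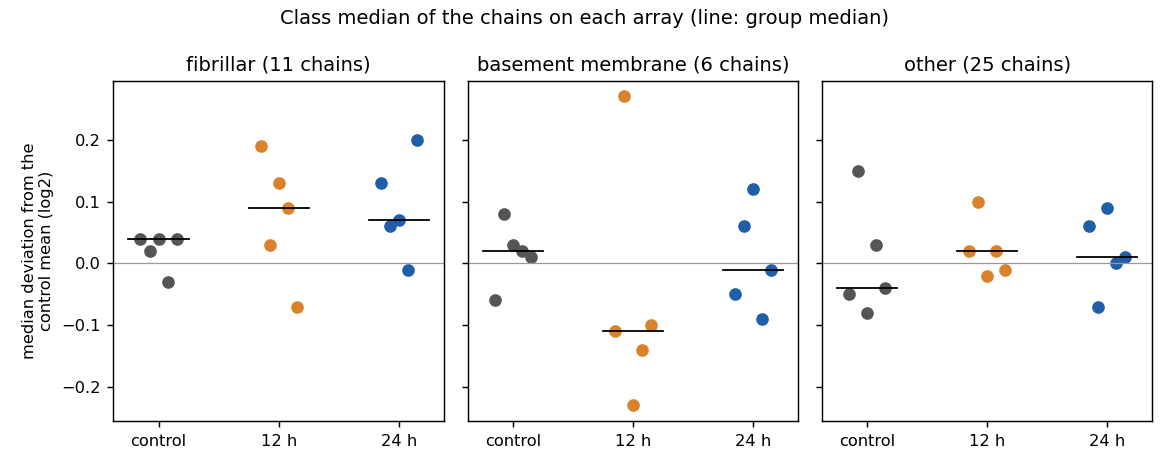
Median over the chains of a class of the deviation from the control mean (log2) on each array, for fibrillar, basement membrane and other chains, with 5 arrays per group and a line at the group median. The points of the 3 groups overlap in each class, and the lowest point, -0.23, is a 12 h array in the basement membrane class.

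The basement membrane class had a median log2 fold change of -0.07 at 12 h and 0.03 at 24 h, with 2 and 4 of the 6 chains higher than the control. The sign of these medians depended on the chains and arrays kept. With only probe sets above the median intensity, a filter that left Col4a2, Col4a4 and Col4a6 in the class, the 12 h median was 0.11. The 24 h median was -0.02 without control replicate 2. Its class median on the arrays ran from -0.06 to 0.08 in the control, from -0.23 to 0.27 at 12 h and from -0.09 to 0.12 at 24 h. Col4a5 stood out among the 6 by its low values at 12 h. This chain joins Col4a3 and Col4a4 in the network of the kidney glomerulus and is mutated in X-linked Alport syndrome in humans.

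The Col4a5 level (probe set TC0X00001394.mm.2) was 4.76, 4.55, 4.44, 5.00 and 4.59 on the control arrays, 4.46, 4.35, 3.99, 4.33 and 4.44 at 12 h, and 4.63, 4.75, 4.74, 4.57 and 4.66 at 24 h. All 5 arrays at 12 h lay below all 5 at 24 h, a separation found upwards from 12 h to 24 h in 1 of 42 chains and in 0.554% of all probe sets, while 0 chains and 0.648% of all probe sets were separated downwards (1.2% either way). The 12 h and control arrays met at 4.44 and 4.46, since control replicate 3 was low. The Col4a5 log2 fold change was -0.35 at 12 h (SE 0.14, 95% confidence interval -0.64 to -0.07, unadjusted p = 0.0185, adjusted p = 0.966, limma), 0.00 at 24 h (-0.29 to 0.29) and 0.36 for 24 h against 12 h (SE 0.14, 0.07 to 0.64, unadjusted p = 0.0179, adjusted p = 0.787). Without the Ang II 12 h replicate 3, the lowest array, the first was -0.27 (unadjusted p = 0.0659) and the last 0.27 (unadjusted p = 0.0641), and without control replicate 4 the first was -0.27 (unadjusted p = 0.065). Without both arrays that stood apart the first was -0.41 (unadjusted p = 0.0106).

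Col4a1 and Col4a2, the chains of the common basement membrane network, gave no call. The Col4a1 level was 4.44, 4.74, 4.66, 4.68 and 4.75 in the control, 4.48, 4.73, 4.40, 4.17 and 4.38 at 12 h, and 4.58, 4.49, 4.80, 4.54 and 4.65 at 24 h. At 12 h 3 arrays lay below every control array and 2 did not, and the log2 fold change was -0.22 (95% confidence interval -0.50 to 0.05, adjusted p = 0.966, limma) at 12 h and -0.04 at 24 h. The Col4a2 level was 4.96, 5.30, 5.55, 5.25 and 5.07 in the control, 5.04, 5.53, 4.93, 5.18 and 5.02 at 12 h, and 5.34, 5.41, 5.34, 5.15 and 5.15 at 24 h. These groups overlapped, and the Col4a2 log2 fold changes were -0.09 at 12 h and 0.05 at 24 h (SE 0.15 each).

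The intervals of the remaining type IV chains included 0 in every comparison. Col4a3, the chain that holds the Goodpasture antigen, had means of 4.92 ± 0.39, 4.87 ± 0.19 and 4.59 ± 0.20 (SD, n = 5), and the difference at 24 h was -0.32 (95% confidence interval -0.69 to 0.04, adjusted p = 0.736, limma). Col4a4, its partner, had means of 5.03 ± 0.31, 5.26 ± 0.07 and 5.19 ± 0.11 (SD, n = 5), with a log2 fold change of 0.23 at 12 h (-0.07 to 0.53). Col4a6, which pairs with Col4a5 in a further network, had means of 4.81 ± 0.32, 4.92 ± 0.20 and 4.91 ± 0.11 (SD, n = 5) and a log2 fold change of 0.11 at both times.

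**Figure D3:**
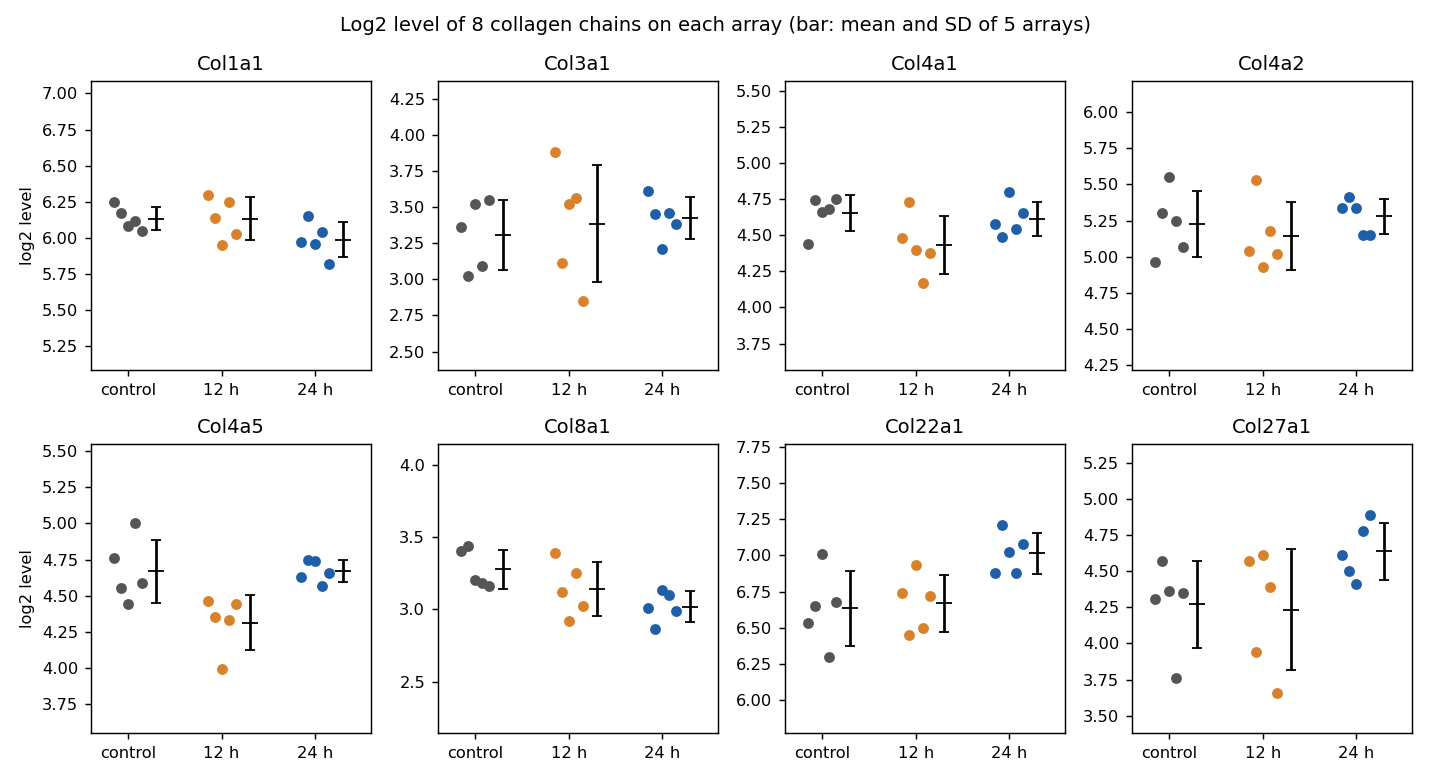
Log2 level of 8 collagen chains on each of the 15 arrays, with the mean and SD of the 5 arrays of a group beside the points. Each panel spans 2 log2 units, and the 12 h arrays of Col4a5 lie between 3.99 and 4.46, below the 24 h arrays at 4.57 to 4.75.

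The other 25 chains had a median log2 fold change of 0.05 at 12 h and 0.00 at 24 h, with 16 and 13 of 25 above the control. Their class median on the arrays ran from -0.08 to 0.15 in the control, -0.02 to 0.10 at 12 h and -0.07 to 0.09 at 24 h. Col22a1, a fibril-associated chain found at tissue junctions such as that of muscle and tendon, had the smallest p among them. The Col22a1 level (probe set TC1500001676.mm.2) was 6.53, 6.65, 7.01, 6.30 and 6.68 in the control, 6.74, 6.45, 6.93, 6.50 and 6.72 at 12 h, and 6.88, 7.21, 7.02, 6.88 and 7.08 at 24 h. The 24 h arrays lay at 6.88 or above, and 1 control array (replicate 3, which stands apart) and 1 array at 12 h reached into their range. The Col22a1 log2 fold change was 0.03 at 12 h, 0.38 at 24 h (SE 0.15, 95% confidence interval 0.07 to 0.69, unadjusted p = 0.0182, adjusted p = 0.612, limma) and 0.35 for 24 h against 12 h (SE 0.15, unadjusted p = 0.0297, adjusted p = 0.791). Without both arrays that stood apart it was 0.47 at 24 h (unadjusted p = 0.00695), and without control replicate 4, the lowest array, it was 0.30 (unadjusted p = 0.0624). For 24 h against 12 h the unadjusted p was above 0.05 when any of replicates 2 and 4 at 12 h and replicates 2 and 5 at 24 h was left out, the highest being 0.0785. The other 7 fibril-associated chains (Col9a1, Col9a2, Col9a3, Col14a1, Col16a1, Col19a1 and Col20a1) had log2 fold changes between -0.16 and 0.11 at both times.

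All 3 chains of the short networks, Col8a1 and Col8a2 of the layer beneath endothelium and Col10a1 of growth plate cartilage, had lower means than the control at both times, with median log2 fold changes of -0.14 at 12 h and -0.26 at 24 h. Col8a1, singled out after its values were seen, was the only chain with its 24 h arrays separated from the control arrays, where 0.585% of all probe sets lay lower in this way and 1.07% in either direction. The Col8a1 level was 3.40, 3.44, 3.20, 3.18 and 3.16 in the control, 3.39, 3.12, 2.92, 3.25 and 3.02 at 12 h, and 3.01, 2.86, 3.13, 3.10 and 2.99 at 24 h. All 5 arrays at 24 h, up to 3.13, lay below the lowest control array at 3.16, and those at 12 h overlapped both groups. The Col8a1 log2 fold change was -0.26 at 24 h (SE 0.13, 95% confidence interval -0.53 to 0.01, unadjusted p = 0.0617, adjusted p = 0.723, limma), at a level far below the mark. Col10a1 had means of 4.17 ± 0.28, 3.80 ± 0.17 and 3.91 ± 0.44 (SD, n = 5) and a log2 fold change of -0.37 at 12 h (-0.76 to 0.03, adjusted p = 0.966, limma). At 12 h no chain's arrays were separated from the control, while 0.689% of all probe sets were separated in either direction.

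Both multiplexins, basement membrane collagens that release antiangiogenic fragments, lay within their spread. Col15a1 had means of 4.88 ± 0.29, 4.71 ± 0.32 and 4.65 ± 0.14 (SD, n = 5), and Col18a1, whose fragment is endostatin, had means of 4.47 ± 0.24, 4.53 ± 0.10 and 4.58 ± 0.25. Of the 4 transmembrane chains Col13a1 had log2 fold changes of 0.23 at 12 h and 0.21 at 24 h (SE 0.14 each, adjusted p = 0.966 and 0.797, limma). Col25a1, a transmembrane chain of nerve and muscle, had 0.22 and 0.28 (SE 0.16 each), and Col17a1 and Col23a1 stayed between -0.14 and 0.06. The 6 type VI chains, which form beaded filaments, had log2 fold changes between -0.15 and 0.27 at both times, with the largest for Col6a6 at 24 h (0.27, SE 0.18, adjusted p = 0.792). The remaining chains Col26a1 and Col28a1 lay between 0.01 and 0.15.

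No pair of chains that share a trimer had a correlation across the arrays that passed the test. For 9 pairs of partner chains the deviations from the group means were correlated over the 15 arrays, and all pairs shared the arrays and their normalization. Pearson's r was highest for Col4a1 and Col4a2 (0.44, permutation p = 0.172, adjusted over the 9 pairs 0.631), with Spearman's rho of 0.29 (permutation p = 0.334, adjusted 0.535), and r was 0.55 without 2 arrays. In each pair these were the 2 arrays on which the lower-numbered chain lay farthest from its median level. For Col1a1 and Col1a2 r was -0.28 (permutation p = 0.261, adjusted 0.631) and rho -0.37 (permutation p = 0.183, adjusted 0.535), and r was -0.26 without the 2 arrays. The lowest over all 15 arrays was that of Col11a1 and Col11a2 (r = -0.39, permutation p = 0.259, adjusted 0.631, and rho = -0.25, permutation p = 0.416, adjusted 0.535, with r = -0.21 without the 2 arrays). The other 6 pairs had r between -0.21 and 0.31 (permutation p of 0.408 or more, adjusted 0.631 or more) and rho between -0.27 and 0.38 (permutation p of 0.206 or more, adjusted 0.535 or more). Without the 2 arrays their r lay between -0.46 and 0.29, and Col6a1 and Col6a2 then had the lowest r of the 9 pairs (-0.46, from -0.15). Over all 861 pairs of the 42 chains the median r was 0.01, and the 5th and 95th percentiles were -0.48 and 0.48, so the r of each partner pair lay within this range.

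Collagen needs a series of enzymes before and after secretion, and 39 genes of these steps and of collagen receptors were measured. At an adjusted p under 0.05 0 of 39 were called in any comparison (limma), and the smallest adjusted p was 0.966 at 12 h, 0.598 at 24 h and 0.787 for 24 h against 12 h. At an unadjusted p under 0.05 there were 1 higher and 1 lower at 12 h, 1 higher and 4 lower at 24 h, and 1 of each for 24 h against 12 h. These are 5.13%, 12.8% and 5.13% of the 39 genes, where 4.91%, 7.1% and 5.99% of all probe sets passed. The median log2 fold change was 0.01 at 12 h and 0.02 at 24 h.

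Of the 12 genes of prolyl and lysyl hydroxylation, which stabilises the helix and prepares crosslinks, 0 had an unadjusted p under 0.05 at 12 h, and 1 was higher and 1 lower both at 24 h and for 24 h against 12 h (16.7%, against 7.1% and 5.99% of all probe sets). P4ha1, a catalytic subunit of prolyl 4-hydroxylase, had a level of 4.31, 4.50, 3.81, 4.71 and 4.37 in the control and 4.73, 5.07, 4.48, 5.00 and 4.50 at 24 h. The groups overlapped, and the P4ha1 log2 fold change was 0.42 at 24 h (SE 0.17, unadjusted p = 0.0235, adjusted p = 0.628, limma). Without control replicate 3 it was 0.28 (unadjusted p = 0.0889), and the unadjusted p was also above 0.05 when replicate 2 or 4 at 24 h was left out. Its homologue P4ha2 had means of 6.50 in the control, 6.16 at 12 h and 6.65 at 24 h, with a log2 fold change of 0.49 for 24 h against 12 h (SE 0.18, unadjusted p = 0.0124, adjusted p = 0.787). Crtap, a partner of prolyl 3-hydroxylase, differed from the control by -0.44 (log2) at 24 h (SE 0.17, unadjusted p = 0.0198, adjusted p = 0.618), with an unadjusted p of 0.058 without control replicate 3 and 0.0505 without replicate 3 at 24 h. Plod1, a lysyl hydroxylase, had means of 5.91, 6.15 and 5.81, and -0.34 for 24 h against 12 h (SE 0.14, unadjusted p = 0.0217, adjusted p = 0.787), with an unadjusted p of 0.0539 without replicate 3 at 12 h and 0.0508 without replicate 5 at 24 h. Thus the members with the smallest p-values lay on both sides of 0. Colgalt1, which adds galactose to hydroxylysine, had means of 4.84, 5.34 and 5.05 and a log2 fold change of 0.49 at 12 h (SE 0.18, unadjusted p = 0.0118, adjusted p = 0.966).

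Among the 7 genes of propeptide cleavage, Bmp1, the protease that removes the C-propeptides of fibrillar procollagens, had the smallest p. The Bmp1 level was 7.52, 7.57, 7.52, 7.46 and 7.58 in the control, 7.11, 7.38, 7.50, 7.58 and 7.61 at 12 h, and 7.45, 7.09, 7.24, 6.87 and 7.21 at 24 h. The control arrays lay close together, and all 5 at 24 h, up to 7.45, lay below the lowest of them at 7.46. This was 1 of 39 genes, where 0.585% of all probe sets lay lower without overlap at 24 h and 1.07% in either direction. The Bmp1 log2 fold change at 24 h was -0.36 (SE 0.14, 95% confidence interval -0.65 to -0.07, unadjusted p = 0.0173, adjusted p = 0.598, limma), and -0.28 without replicate 4 at 24 h (unadjusted p = 0.0592). The 6 genes of folding and export, with the collagen chaperone Serpinh1 (HSP47) and the export receptors Mia2 and Mia3, and the 4 lysyl oxidases of crosslinking held no gene at an unadjusted p under 0.05.

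Of the 8 collagen receptors 6 had a lower mean than the control at both times, with a median log2 fold change of -0.13 at 12 h and -0.19 at 24 h. Lair1, an inhibitory collagen receptor of immune cells, had a level of 4.97, 5.24, 4.49, 4.51 and 4.89 in the control and 4.97, 4.63, 3.85, 4.41 and 3.78 at 24 h. These values overlapped, and the Lair1 log2 fold change at 24 h was -0.49 (SE 0.22, unadjusted p = 0.0332, adjusted p = 0.661, limma). The unadjusted p rose to as much as 0.114 when any of control replicates 1, 2 and 5 and replicates 3 and 5 at 24 h was left out. Mrc2 (Endo180), which takes up collagen for degradation, had means of 4.84 ± 0.26, 4.48 and 4.44, with log2 fold changes of -0.36 at 12 h (unadjusted p = 0.0486, adjusted p = 0.966) and -0.40 at 24 h (unadjusted p = 0.0287, adjusted p = 0.647). Without control replicate 2 these were -0.25 (unadjusted p = 0.156) and -0.30 (unadjusted p = 0.0991). The unadjusted p was above 0.05 at 12 h also without control replicate 3 or 4, any of replicates 1 to 3 at 12 h or replicate 2 at 24 h, and at 24 h also without replicate 1 or 5 of that time. Itgb1, the beta chain of the collagen-binding integrins, was the receptor above the mark, with means of 7.69, 7.39 and 7.59.

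**Figure D4:**
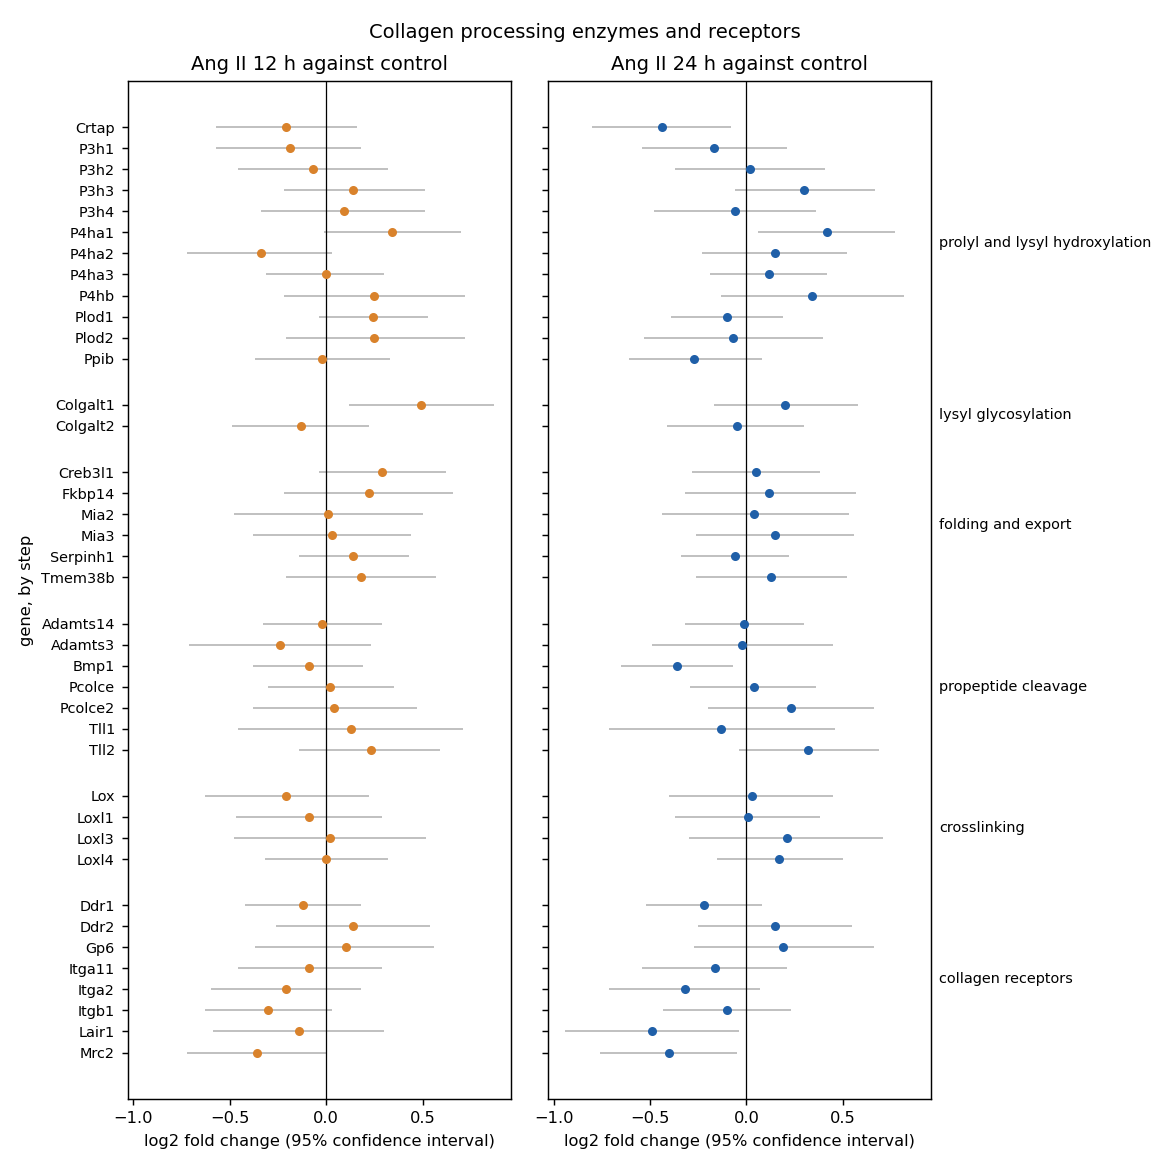
Log2 fold change of 39 collagen processing enzymes and collagen receptors after 12 h (left) and 24 h (right) of Ang II against control, by step, with the 95% confidence interval of the limma fit as the bar (5 arrays per group). Points lie on both sides of 0 in most steps, and the widest bound is 0.94.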

How the data were processed

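The 15 arrays were hybridised with RNA of the cultured LECs. The authors deposited log2 values that had been read with GCOS, analysed with the Transcriptome Analysis Console and normalized with RMA. The probe set identifiers belong to another array design than the one the methods name, and their genome build is unstated. The platform annotation gave 1 symbol to 19572 of 22206 probe sets, and 2634 were left unnamed. The log2 values were fitted with limma 3.58.1 in R 4.3.3 in 1 model of the 3 groups (12 residual and 8.03 prior degrees of freedom), with no filter and Benjamini-Hochberg adjustment over all probe sets, after a test of the fit on simulated data. Class medians have no test. Correlations of partner chains were tested by 100000 permutations within groups, two-sided, a test added to the planned description. The number of arrays limits the precision. The collagen chains and lists were chosen with earlier results of these data known. Named with values by rule were Col1a1, Col1a2, Col3a1, Col4a1 to Col4a6, and chains and processing genes at an unadjusted p under 0.05. The rule also took the chain with the smallest F test p of the fibrillar and type IV classes and of each structural subgroup of the other chains. Further genes given values, such as Col2a1, Col8a1, Col18a1, Col25a1 and Itgb1, were picked outside this rule. Of the 45 processing and receptor genes listed 39 were measured. Other settings tried were array weights, quantile normalization, arrays centred on their median, a filter on dim probe sets, probe sets averaged per gene, eBayes with a trend and robust variances, a plain linear model without moderation, a replicate block, fits restricted to both groups of a contrast, Duncan's test and leaving out each array.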

Additional observations from a re-analysis of the deposited data

Results flagged for a closer look

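In 6 of 126 sets of 5 arrays (42 chains in 3 groups) the highest or lowest array lay far from the others by Dixon's criterion, and chance flags about 1 in 20 such sets. Col24a1 had a low value of 3.48 on control replicate 3, with the next at 3.81. Col15a1 had a low value of 4.14 on the Ang II 12 h replicate 5, with the next at 4.75. Col6a5 had a high value of 5.77 on control replicate 4, with the next at 5.42, and of 5.68 on the Ang II 24 h replicate 5, with the next at 5.44. Col4a5 had a low value of 3.99 on the Ang II 12 h replicate 3, with the next at 4.33. Col23a1 had a high value of 5.07 on the Ang II 24 h replicate 3, with the next at 4.84. The arrays that stood apart as a whole, control replicate 3 and the Ang II 24 h replicate 3, account for 2 of the 6.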

How the results depend on the processing

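Of 2574 values under alternatives 2498 stayed within a limit and 76 moved by more. The limit was 1 residual SD for a gene and 1.5 times for a count. For a class median it was the SD of that median over the arrays within groups. Under all alternatives 0 collagen chains or processing genes passed an adjusted p under 0.05. No chain or processing gene at an unadjusted p under 0.05 in a comparison changed sign there, but class medians near 0 did. The rest of the counts in this section are at an unadjusted p under 0.05. The share of all probe sets that passed was not taken under these settings. The counts therefore show how far the numbers move and are not a result about collagens. With only probe sets above the median intensity, the class median of type IV chains was 0.11 at 12 h and that of fibrillar chains -0.03 at 24 h, 0 chains were lower at 12 h, 1 was higher for 24 h against 12 h and 1 passed the F test, while of the processing genes 0 were higher at 24 h, 0 lower at 12 h and 1 lower at 24 h. For 24 h against 12 h the fibrillar median was then 0.01 and the type IV median -0.01. Fewer genes were tested there, and each class median was taken over only the chains that passed the filter. With an intensity trend and robust settings 1 chain was lower at 24 h and 0 processing genes at 12 h. With no moderation 2 chains were lower at 12 h, 1 at 24 h and 1 for 24 h against 12 h, and of the processing genes 2 were higher at 12 h, 0 lower at 12 h and 2 lower for 24 h against 12 h. Duncan's multiple range test gave 1 chain lower at 24 h and 1 for 24 h against 12 h, with 2 processing genes higher and 0 lower at 12 h and 2 lower for 24 h against 12 h. In fits of only the groups compared 2 chains were lower at 12 h and 2 higher at 24 h. Leaving out control replicate 3 together with the Ang II 24 h replicate 3 was chosen after seeing the data. In that fit 2 processing genes were higher and 0 lower at 12 h, and 2 were lower at 24 h. Other causes were not tested.

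The values gave no sign that the replicate numbers pair the samples, which does not exclude a pairing, and nothing states one. The deviations of same-numbered arrays correlated at -0.0426 to 0.0451 over 15 pairs, and 1 of 15 arrays correlated best with its own number. With the number as a block 2 chains were lower at 12 h and 1 at 24 h.

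Leaving out 1 array gave 1 to 3 chains in the F test, 0 to 1 higher and 0 to 2 lower at 12 h, 0 to 4 higher and 0 to 1 lower at 24 h, and 1 to 3 higher for 24 h against 12 h. The share of all probe sets was not taken in these fits either, so the counts have no background beside them. The F test gave 1 chain when any of control replicates 1 and 4 and 24 h replicates 2, 3 and 5 was left out. At 24 h 4 chains were higher without control replicate 2, 2 without replicate 5 at 12 h or replicate 2 or 3 at 24 h, and 0 without control replicate 4, and 1 was lower without control replicate 5 or replicate 1 at 24 h. At 12 h 1 was higher without control replicate 5 or replicate 5 at 12 h, 2 were lower without control replicate 2, replicate 2 at 12 h or replicate 1 at 24 h, and 0 without replicate 3 at 12 h. For 24 h against 12 h 1 was higher without replicate 2 at 12 h or replicate 5 at 24 h. The fibrillar median for 24 h against 12 h ran from -0.07 to 0.03, the latter without the Ang II 24 h replicate 2, and the type IV median at 24 h was -0.02 without control replicate 2. Of the processing genes 1 to 3 were higher and 0 to 3 lower at 12 h, 0 to 2 higher and 2 to 4 lower at 24 h, and 1 to 2 higher and 0 to 3 lower for 24 h against 12 h.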
